A study of Rattus norvegicus with 4 samples.

Results

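The genes described here encode the machinery of DNA replication and S phase: the proteins that mark and license origins, the helicase, the polymerases with their clamp and clamp loader, the enzymes that supply nucleotides, the factors that copy chromatin, and E2F transcription factors. They were chosen by name, 56 in all, with earlier results of these data known. Of these, 54 had a probe set with a single gene symbol among the 18166 genes tested. Rrm1 and Tk1 were not analysed here. Total RNA of the uterus of Sprague Dawley rats, adults aged 10 to 12 weeks, was measured on day 5 of pregnancy, in the pre-implantation period, on 4 Affymetrix whole-transcript arrays. The 2 ormeloxifene arrays came from rats that received, on day 1, ormeloxifene by mouth at 1.25 mg per kg, suspended in gum acacia. The 2 vehicle arrays came from rats that received only the vehicle. Ormeloxifene, an oral contraceptive without a steroid skeleton, binds oestrogen receptors and acts as an agonist or antagonist depending on the tissue. The labels do not say how many rats gave the RNA of an array. The RNA was that of a tissue, not of sorted cells, so fewer cells in S phase and less RNA per such cell cannot be told apart.

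Replication starts at origins bound by the origin recognition complex, where CDC6 and CDT1 load the MCM helicase in G1. Kinases then fire the origins, CDC45 and GINS join the helicase, and polymerases alpha, delta and epsilon copy the strands with PCNA as their sliding clamp. Most of these genes are transcribed as cells enter S phase, under E2F factors, so their transcripts are widely used as a sign of proliferating cells. In the rodent uterus, oestrogen drives division of the epithelium early in pregnancy, and progesterone with a little oestrogen moves division to the stroma before the embryo implants.

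Replication genes tended to lie lower in the ormeloxifene uteri, but by little, and the amount depended on 1 vehicle array. On the log2 scale after quantile normalization, 47 of the 54 measured members had a lower mean with ormeloxifene than with vehicle and 7 a higher one, against 46.6% lower among all genes tested. Their median difference, ormeloxifene minus vehicle, was -0.19, against 0.02 over all genes. By limma, with Benjamini-Hochberg adjustment over all genes, 0 of the 54 members passed an adjusted p of 0.05, as did 0 of all 18166 genes (0% called). The members' smallest adjusted p was 1.00. At an unadjusted p under 0.05 stood 2 members, Pcna and Pole, both lower, where 1.08% of all genes were lower and 1.12% higher at that level. With 2 arrays in each group, the smallest p that an exact permutation test of a gene allows is 0.333.

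Within replicate number 2 nearly all members lay lower, and within number 1 they were split. Ormeloxifene replicate 2 was below vehicle replicate 2 in 50 of 54 members, at a median difference of -0.37, where 52.7% of all genes were lower. Ormeloxifene replicate 1 was below vehicle replicate 1 in 29 of 54, at a median of -0.03, where 43.7% of all genes were lower. Arrays with the same number had 488 and 551 probe sets whose deposited values were identical, and the other pairs of arrays had 0. The labels name no batch, and the limma fit above had no term for the number. With the number as a block in limma, 5 members had an unadjusted p under 0.05, all of them lower, namely Pcna, Pole, Mcm6, Mcm2 and Mcm5, where 3.02% of all genes were lower and 3.74% higher at that level. No member passed the adjusted threshold in that fit, which called 0.0275% of all genes, nor in the block fit on the values as deposited, which called 0.462%.

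Vehicle replicate 2 stood apart from the other 3 arrays in these genes. It was the highest of the 4 arrays for 43 of 54 members, against 28.3% of all genes. It exceeded vehicle replicate 1 in 48 of 54 members, at a median of 0.27, larger in size than the median difference between the groups, and 54.6% of all genes did the same. The ormeloxifene arrays differed from each other by a median of 0.01, with replicate 2 the higher in 27 members. Relative to each gene's own mean over the 4 arrays, the members' median was -0.09 and -0.07 on the ormeloxifene arrays, -0.05 on vehicle replicate 1 and 0.24 on vehicle replicate 2. Without vehicle replicate 2 the median difference was -0.05 with 32 of 54 members lower, and without vehicle replicate 1 it was -0.34 with 52 lower. Without ormeloxifene replicate 1 and without ormeloxifene replicate 2 it was -0.21 and -0.14. The list's median stayed below 0 in all 4 of these settings, and its size changed. Single members were less steady: leaving out 1 of the 4 arrays turned the sign of the difference in 27 of the 54 at least once, and leaving out vehicle replicate 2 turned it in 15. Leaving out an array also leaves 1 group with a single replicate number, so any shift shared by same-numbered arrays enters these differences. Orc2 was lower within both numbers, at -0.31 and -0.18, yet turned to 0.070 without ormeloxifene replicate 1. Rfc4 became -0.39 without vehicle replicate 1, and without vehicle replicate 2 Mcm4 became 0.12 and E2f1 0.052.

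**Figure D1:**
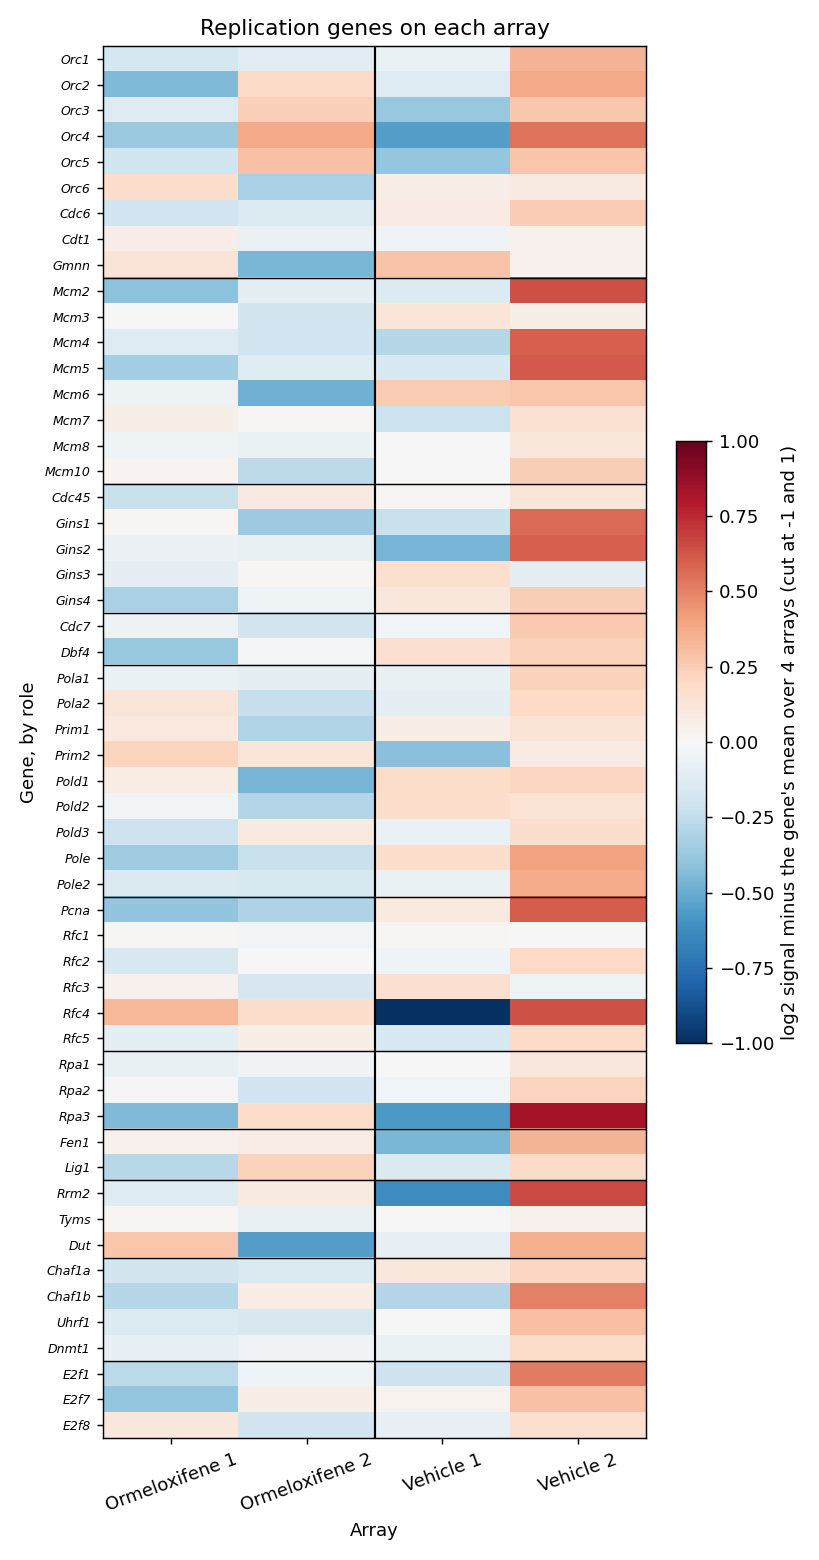
Log2 signal of the 54 measured replication genes on each array, relative to each gene's mean over the 4 arrays, with genes in rows grouped by role (black lines) and colours limited at -1 and 1. Vehicle replicate 2 is the highest array for 43 of the 54 genes.

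The groups did not overlap in 16 members that lay lower with ormeloxifene, where 11.8% of all genes did the same, and in 1 that lay higher, where 13.9% did. The 16 were Orc1, Cdc6, Mcm3, Mcm6, Mcm8, Gins4, Cdc7, Dbf4, Pold1, Pold2, Pole, Pole2, Pcna, Rpa1, Chaf1a and Uhrf1, and the 1 was Prim2. In the other 37 members the groups overlapped. An absolute difference of at least 0.5 was seen in 5 members, where 3.63% of all genes reached it; these were Pcna, Pole, Mcm6 and Mcm2, which were lower, and Rfc4, which was higher. None reached 1, as 0.209% of all genes did. The 95% interval of a member's difference reached a median of 0.53 to either side of it, so for most members a shift of the size seen was not detectable with these arrays.

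The promoters of 6 members from the MCM, clamp and polymerase results below are shown as examples. They were picked partly because words of the kind that E2F factors bind lie in 5 of the 6, so that share is not a result. Windows were those of RefSeq on GRCr8, from 250 bases before to 50 after the annotated start, and were found for 45 of the 54 members; Orc1, Orc4, Cdc6, Mcm4, Gins4, Rpa3, Rrm2, E2f1 and E2f8 had none. The words searched, on both strands and with overlaps counted, were TTTCCCGC, TTTGGCGC, TTTCGCGC and TTTGCCGC. At least 1 of them was found in 22 of the 45 members (48.9%), against 3.17% of the 14503 tested genes with a window and 2.37% of all 27457 genes in the table. The window's GC content had a median of 61.0% over the members and 57.0% over the tested genes. The CCAAT word, also on both strands, was found in 57.8% of the members and 39.0% of the tested genes. Members that lay lower without overlap held an E2F word in 6 of 13 windowed genes and the other members in 16 of 32. The sequences run from 240 bases before the start to 20 after it, 5′ to 3′ along the gene, with the E2F words in capitals.
Pcna (chr3:139955801-139956060, minus strand): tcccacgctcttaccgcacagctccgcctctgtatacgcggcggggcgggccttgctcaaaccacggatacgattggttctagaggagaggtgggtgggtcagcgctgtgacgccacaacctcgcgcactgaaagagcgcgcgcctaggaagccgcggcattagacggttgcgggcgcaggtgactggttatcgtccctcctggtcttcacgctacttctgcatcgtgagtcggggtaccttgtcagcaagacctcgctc
Pole (chr12:52053643-52053902, minus strand): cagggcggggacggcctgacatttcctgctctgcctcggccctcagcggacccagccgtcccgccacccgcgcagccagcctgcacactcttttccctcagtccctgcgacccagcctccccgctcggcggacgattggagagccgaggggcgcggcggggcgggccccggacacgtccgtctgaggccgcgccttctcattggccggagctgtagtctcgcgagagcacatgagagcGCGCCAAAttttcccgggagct
Mcm2 (chr4:122918075-122918334, minus strand): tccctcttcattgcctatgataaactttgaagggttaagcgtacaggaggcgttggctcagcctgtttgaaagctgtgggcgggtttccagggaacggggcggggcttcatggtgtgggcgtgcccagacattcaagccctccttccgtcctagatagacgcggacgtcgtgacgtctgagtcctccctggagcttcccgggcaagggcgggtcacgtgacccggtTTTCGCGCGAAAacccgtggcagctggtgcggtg
Mcm5 (chr19:13488573-13488832, plus strand): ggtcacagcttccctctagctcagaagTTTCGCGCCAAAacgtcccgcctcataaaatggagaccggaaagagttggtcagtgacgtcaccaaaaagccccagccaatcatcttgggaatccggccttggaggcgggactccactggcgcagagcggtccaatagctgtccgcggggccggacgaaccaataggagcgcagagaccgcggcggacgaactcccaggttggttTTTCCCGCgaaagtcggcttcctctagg
Mcm6 (chr13:42404333-42404592, minus strand): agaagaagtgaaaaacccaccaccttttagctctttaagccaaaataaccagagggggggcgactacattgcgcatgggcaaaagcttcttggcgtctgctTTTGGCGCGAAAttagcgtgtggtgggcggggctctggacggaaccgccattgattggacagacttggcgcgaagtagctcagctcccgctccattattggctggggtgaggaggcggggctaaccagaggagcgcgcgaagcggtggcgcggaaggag
Mcm7 (chr12:22163159-22163418, minus strand): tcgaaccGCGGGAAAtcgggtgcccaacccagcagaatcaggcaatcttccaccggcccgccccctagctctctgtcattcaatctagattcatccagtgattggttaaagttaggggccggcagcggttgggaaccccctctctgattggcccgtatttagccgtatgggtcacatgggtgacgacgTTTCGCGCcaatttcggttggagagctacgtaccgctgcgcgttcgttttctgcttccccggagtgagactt
In Mcm2, Mcm5 and Mcm6 a word on each strand overlapped, which gave the runs TTTCGCGCGAAA, TTTCGCGCCAAA and TTTGGCGCGAAA. The pair began 14 bases before the start in Mcm2, 213 before it in Mcm5 and 139 before it in Mcm6. Mcm5 held a further TTTCCCGC that began 8 bases before the start. The Pole window held GCGCCAAA, the reverse complement of TTTGGCGC, beginning 2 bases before the start. Mcm7 held a word 233 bases and another 52 bases before the start, and its mean signal was not lower with ormeloxifene. The Pcna window held none of these exact words. A match is a description of the letters and was not tested as a site.

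The sliding clamp showed the largest difference among the members. Pcna, which encodes the ring that tethers polymerases to DNA (probe set 17777527), had log2 signals of 8.26 and 8.34 on the ormeloxifene arrays, against 8.75 and 9.26 on the vehicle arrays. Both ormeloxifene arrays were below both vehicle arrays. The mean was 8.30 ± 0.06 with ormeloxifene and 9.01 ± 0.36 with vehicle (SD, n = 2 each), a difference of -0.71 ± 0.24 (SE) or 1.63-fold lower, with a 95% interval from -1.27 to -0.15. Its unadjusted p by limma across all genes was 0.0203. The difference was -0.49 within number 1 and -0.92 within number 2, and -0.45 without vehicle replicate 2.

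The subunits of the clamp loader, RFC, which opens the ring and places it on DNA, differed by -0.16 to 0.51. Rfc1, the large subunit, was nearly level, at 7.09 and 7.05 with ormeloxifene against 7.09 and 7.08 with vehicle. Rfc2, Rfc3 and Rfc5 differed by -0.16, -0.13 and -0.04. Rfc4 had 6.29 and 6.13 with ormeloxifene against 4.81 and 6.59 with vehicle. Its difference of 0.51 ± 0.50 rested on the low value of vehicle replicate 1, and within the numbers it was 1.48 and -0.47.

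**Figure D2:**
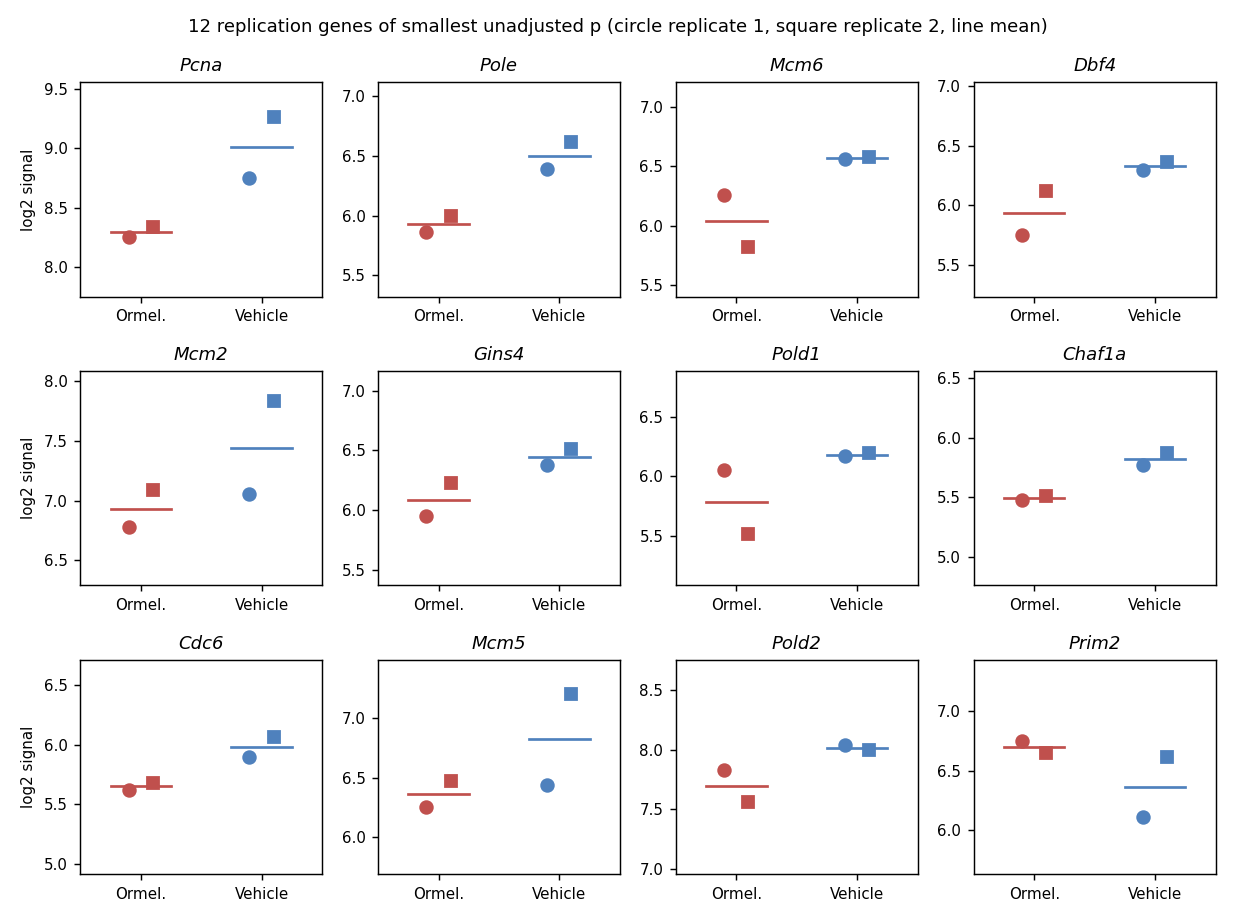
Log2 signal of the 12 replication genes of smallest unadjusted p on each array, ormeloxifene in red to the left and vehicle in blue to the right (circles replicate 1, squares replicate 2, lines group means); every panel spans 1.8 log2 units. In Pcna, Pole, Chaf1a and Cdc6 the ormeloxifene arrays lie close together below both vehicle arrays, and Prim2 is the only one of the 12 with a higher ormeloxifene mean.

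Of the polymerase and primase subunits, 8 of 9 lay lower with ormeloxifene, 4 of them without overlap, as 11.8% of all genes did. Pole, the catalytic subunit of the leading-strand polymerase epsilon (probe set 17679021), had 5.87 and 6.0 with ormeloxifene against 6.39 and 6.62 with vehicle. Its difference was -0.57 ± 0.21 or 1.49-fold lower, with a 95% interval from -1.07 to -0.08 and an unadjusted p by limma of 0.0288. The difference was -0.53 within number 1 and -0.62 within number 2. Its partner Pole2, the second subunit of the enzyme, had 4.58 and 4.57 with ormeloxifene against 4.65 and 5.09 with vehicle, at the 14.9th percentile of mean signal among genes tested.

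Polymerase delta, which copies the lagging strand, gave smaller values. Its catalytic subunit Pold1 had 6.06 and 5.52 with ormeloxifene against 6.17 and 6.20 with vehicle, a difference of -0.40 ± 0.24. Its accessory subunit Pold2 had 7.83 and 7.56 with ormeloxifene against 8.04 and 8.0 with vehicle, a difference of -0.32 ± 0.21. Neither gene overlapped between groups, and in both the ormeloxifene arrays were farther apart than the vehicle arrays. Pold3, another accessory subunit, differed by -0.11, and the polymerase alpha subunits Pola1 and Pola2 by -0.16 and -0.11.

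The primase subunits, which lay the RNA primers for polymerase alpha, lay on opposite sides of 0. Prim1, the catalytic subunit, had 8.81 and 8.41 with ormeloxifene against 8.77 and 8.84 with vehicle, a difference of -0.20 ± 0.23 that was 0.03 within number 1 and -0.43 within number 2. Prim2, the regulatory subunit, had 6.75 and 6.65 with ormeloxifene against 6.11 and 6.62 with vehicle. It was the only member higher with ormeloxifene without overlap, at 0.34 ± 0.24 and an unadjusted p by limma of 0.203. That difference was 0.64 within number 1 and 0.03 within number 2, so it rested mainly on vehicle replicate 1.

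In the MCM group, 7 of 8 members lay lower, at a median of -0.28. Mcm2 to Mcm7 encode the 6 subunits of the replicative helicase. Mcm6 had 6.26 and 5.82 with ormeloxifene against 6.56 and 6.58 with vehicle, a difference of -0.53 ± 0.23 (95% interval -1.06 to 0.01) and an unadjusted p by limma of 0.0525. The vehicle arrays were nearly equal in Mcm6, and the low value was that of ormeloxifene replicate 2. Mcm2 had 6.77 and 7.09 with ormeloxifene against 7.05 and 7.84 with vehicle, and Mcm5 had 6.25 and 6.47 with ormeloxifene against 6.44 and 7.20 with vehicle. In both, vehicle replicate 2 was the highest array and ormeloxifene replicate 2 lay just above vehicle replicate 1, so the groups overlapped. Their differences were -0.51 ± 0.30 and -0.46 ± 0.29.

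Mcm7 was the helicase subunit with a higher ormeloxifene mean. It had 7.44 and 7.40 with ormeloxifene against 7.17 and 7.54 with vehicle, a difference of 0.07 ± 0.22 (95% interval -0.45 to 0.59). Mcm4 had 6.94 and 6.88 with ormeloxifene against 6.79 and 7.67 with vehicle, again with vehicle replicate 2 far above the rest. Mcm3 differed by -0.18. A further probe set of Mcm3, whose mean over the 4 arrays was lower, gave 0.31, so the direction of Mcm3 depended on the probe set; the further probe sets of Mcm4 and Prim1 gave -0.60 and -0.39, the direction of those used. Of the relatives outside the replicative helicase, Mcm10, which takes part in helicase activation, differed by -0.24 and Mcm8, which acts in recombination repair, by -0.11.

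CDC45 and the GINS complex turn the loaded MCM ring into the moving helicase, and all 5 of their genes had a lower mean with ormeloxifene, at a median of -0.14. Gins4 had 5.95 and 6.23 with ormeloxifene against 6.38 and 6.51 with vehicle, a difference of -0.36 ± 0.22. It was the only gene of the 5 without overlap, where 11.8% of all genes were lower without overlap. Gins1 and Gins2 differed by -0.35 and -0.13, with differences of 0.24 and 0.40 within number 1 and -0.93 and -0.67 within number 2. Gins3 had 6.66 and 6.76 with ormeloxifene against 6.92 and 6.67 with vehicle, and Cdc45 differed by -0.14.

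The DDK kinase, which phosphorylates MCM proteins to fire origins, lay lower in both subunits without overlap, as 11.8% of all genes did. Its regulatory subunit Dbf4 had 5.75 and 6.12 with ormeloxifene against 6.30 and 6.36 with vehicle, a difference of -0.40 ± 0.22. Here the difference was larger within number 1, at -0.55, than within number 2, at -0.25. The catalytic subunit Cdc7 had 5.76 and 5.63 with ormeloxifene against 5.78 and 6.07 with vehicle, and in number 1 its arrays differed by only -0.02.

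Origin recognition and licensing genes were divided, with 6 of 9 lower at a median of -0.16. Cdc6, which loads MCM onto origins, had 5.62 and 5.68 with ormeloxifene against 5.89 and 6.07 with vehicle, a difference of -0.33 ± 0.21 that was -0.27 within number 1 and -0.39 within number 2. Orc1, the subunit whose level is regulated through the cell cycle in human cells, had 4.85 and 4.92 with ormeloxifene against 4.96 and 5.36 with vehicle. Of the other subunits, Orc2 and Orc6 differed by -0.25 and -0.16. Orc3, Orc4 and Orc5 lay slightly higher, by 0.11, 0.01 and 0.11. Their values followed the replicate number more than the group: Orc3 had 6.96 and 7.32 with ormeloxifene against 6.70 and 7.36 with vehicle. Cdt1, the other loader, differed by -0.01 and its inhibitor geminin, Gmnn, by -0.32.

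**Figure D3:**
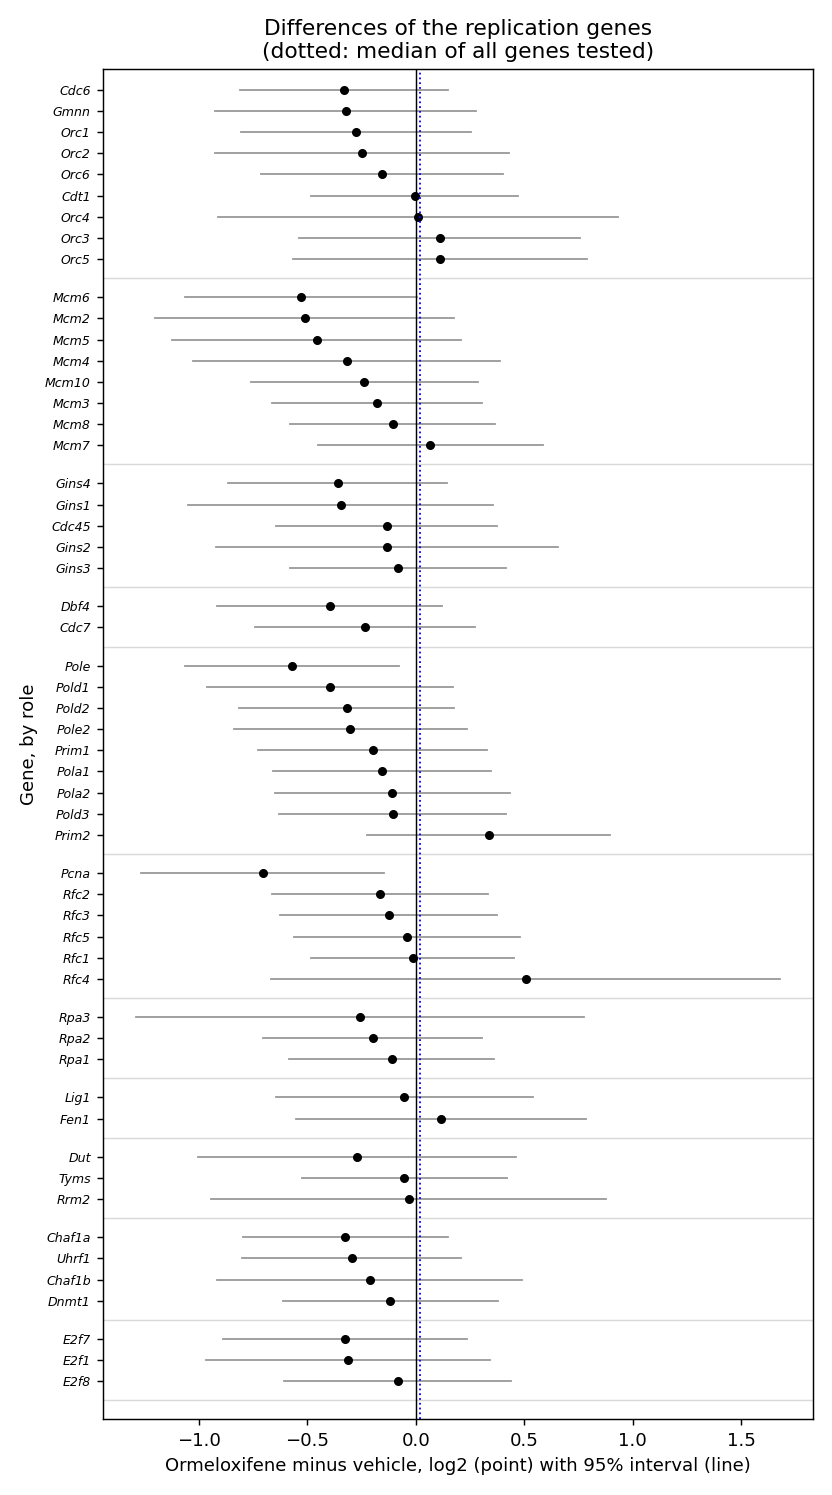
Difference of each of the 54 replication genes, ormeloxifene minus vehicle on the log2 scale, with its 95% interval from limma, grouped by role; the dotted line is the median of all genes tested, 0.02. The intervals of Pcna and Pole lie below 0 and the other 52 include it.

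The genes of the single-strand binding protein RPA, of Okazaki fragment joining and of nucleotide supply had median differences of -0.20, 0.03 and -0.05. Of the 3 nucleotide supply genes measured, 0 were lower within number 1 and 3 within number 2, at medians of 0.36 and -0.57. Rpa1, Rpa2 and Rpa3, which coat unwound DNA, differed by -0.11, -0.20 and -0.26. Rpa1 had 6.71 and 6.75 with ormeloxifene against 6.79 and 6.90 with vehicle, without overlap, and Rpa3 was dim, at the 9.89th percentile. Fen1, the flap nuclease, differed by 0.12 and the ligase Lig1 by -0.05. Lig1 had 6.74 and 7.25 with ormeloxifene against 6.88 and 7.22 with vehicle, and the groups overlapped. Thymidylate synthase, Tyms, had 7.62 and 7.53 with ormeloxifene against 7.61 and 7.65 with vehicle, a difference of -0.05 ± 0.20 (95% interval -0.53 to 0.42). Dut, which removes dUTP, differed by 0.36 within number 1 and -0.90 within number 2. The ribonucleotide reductase subunit Rrm2 had 5.83 and 6.03 with ormeloxifene against 5.32 and 6.61 with vehicle, so its vehicle arrays enclosed both ormeloxifene arrays. Its other probe set differed by -0.61 and the one used by -0.03.

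All 4 genes that restore chromatin behind the fork had a lower mean with ormeloxifene, at a median of -0.25. Chaf1a, the large subunit of the CAF-1 histone chaperone, had 5.48 and 5.51 with ormeloxifene against 5.77 and 5.87 with vehicle, a difference of -0.33 ± 0.20. Both replicates of each group lay close together in Chaf1a, and the difference was -0.29 within number 1 and -0.36 within number 2. Uhrf1, which reads hemimethylated DNA, had 6.23 and 6.20 with ormeloxifene against 6.36 and 6.66 with vehicle, and its partner Dnmt1, the maintenance methyltransferase, had 7.39 and 7.44 with ormeloxifene against 7.40 and 7.66 with vehicle. Chaf1b, the middle subunit of CAF-1, differed by -0.21.

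The 3 E2F factors listed also had lower means. E2f1, an activator of S phase genes, had 5.69 and 5.91 with ormeloxifene against 5.75 and 6.48 with vehicle, a difference of -0.31 ± 0.28. The atypical repressors E2f7 and E2f8 differed by -0.33 ± 0.24 and -0.08 ± 0.23. E2f7 had 5.58 and 6.03 with ormeloxifene against 6.01 and 6.26 with vehicle, and the groups overlapped narrowly.

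Members of lower and higher signal behaved alike in direction. Among the 27 members of lower mean signal, ormeloxifene means were below vehicle means in 24 (median -0.24), and among the 27 of higher mean signal they were in 23 (median -0.16). Within number 1 the medians of these sets were -0.02 and -0.07, and within number 2 they were -0.44 and -0.22.

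**Figure D4:**
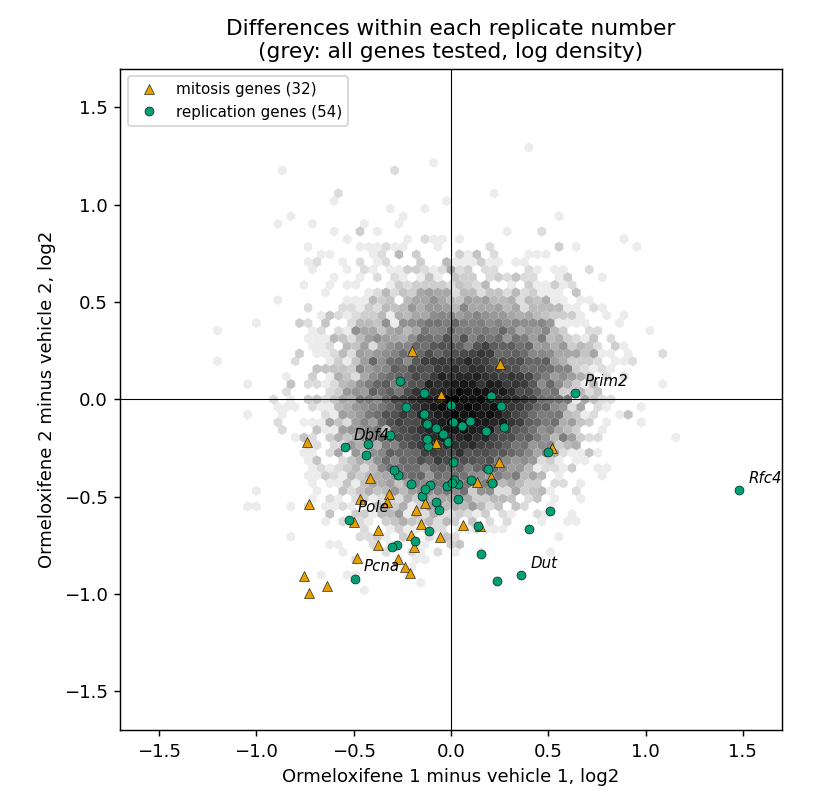
Difference of each gene within replicate number 1 (horizontal, log2) and within number 2 (vertical, log2), with replication genes as green circles, mitosis genes as orange triangles and all genes tested in grey (those beyond 1.7 on either axis are not shown). Replication genes lie below 0 on the vertical axis in 50 of 54 cases and to the left of 0 on the horizontal axis in 29 of 54.

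Mitosis genes, the nearest related group, lay lower by more, with 29 of 32 measured members lower and a median of -0.42. Their medians were -0.21 within number 1, with 25 of 32 lower, and -0.60 within number 2, with 29 of 32 lower. Kif20a, a mitotic kinesin, differed by -0.86 ± 0.22, the mitotic kinase Cdk1 by -0.80 ± 0.21 and the topoisomerase Top2a by -0.83 ± 0.26. None of these passed the adjusted threshold by limma as fitted above. When the values were left as deposited and the replicate number was made a block, Kif20a and Top2a did, both lower, at adjusted p of 0.0382 and 0.0479 by limma, where 0.462% of all genes passed; with the block on normalized values neither did (0.278 and 0.296). The difference between this group and the replication genes was not tested. Vehicle replicate 2 exceeded vehicle replicate 1 by a median of 0.47 in mitosis genes, against 0.27 in replication genes.

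Other fork and firing factors, outside the 56 names, lay lower in 30 of 42 measured genes, at a median of -0.08. Cdca7, which takes part in DNA methylation with the remodeller HELLS, had 5.88 and 5.94 with ormeloxifene against 6.31 and 6.93 with vehicle and was the only one of them at an unadjusted p under 0.05 by limma (0.0266), where 1.08% of all genes were lower at that level. Dnajc2, a chaperone cofactor, and Dscc1, of an alternative clamp loader, differed by -0.42 ± 0.20 and -0.65 ± 0.36. Of 14 S phase checkpoint and cyclin genes 10 lay lower, at a median of -0.17. Ccna2, the cyclin of S phase and G2, had 6.43 and 6.42 with ormeloxifene against 7.03 and 7.52 with vehicle, a difference of -0.85 ± 0.24. Chek1, the checkpoint kinase of stalled forks, had 5.17 and 5.16 with ormeloxifene against 5.57 and 5.90 with vehicle, a difference of -0.57 ± 0.22. Wee1, the kinase that restrains CDK1, differed by -0.29 ± 0.21. By limma as fitted above, 0 of these passed the adjusted threshold. With the replicate number as a block, Ccna2 passed on the values as deposited (adjusted p 0.0482 by limma) and did not on normalized values (0.364).

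Among the remaining E2F family and pocket protein genes 9 of 14 lay lower, at a median of -0.08. Foxm1, a transcription factor of G2 and mitosis genes, had 6.39 and 6.56 with ormeloxifene against 6.97 and 6.91 with vehicle, a difference of -0.46 ± 0.21. The pocket proteins were divided, and Rb1 differed by -0.13 with overlapping groups. Rbl1 (p107), itself transcribed in proliferating cells, differed by -0.53 ± 0.27. That difference was -0.07 within number 1 and -0.98 within number 2. Rbl2 (p130), the pocket protein of resting cells, had 7.82 and 7.68 with ormeloxifene against 7.44 and 7.44 with vehicle. Its difference was 0.31 ± 0.20 without overlap, where 13.9% of all genes were higher without overlap. The unadjusted p by limma was 0.0587 for Foxm1, 0.0866 for Rbl1 and 0.169 for Rbl2.

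**Figure D5:**
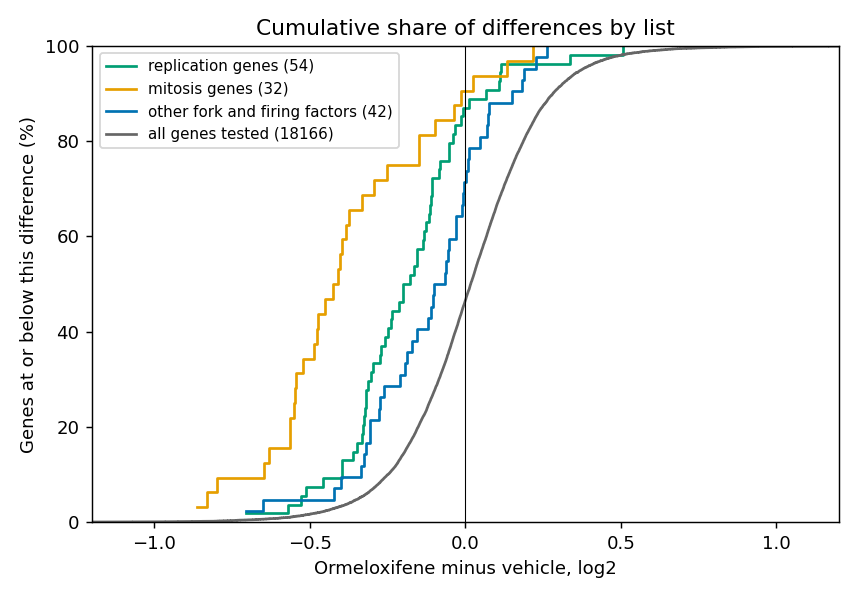
Cumulative share of genes (percent) at or below each difference, ormeloxifene minus vehicle on the log2 scale, for 54 replication genes, 32 mitosis genes, 42 other fork and firing factors and all 18166 genes tested. At a difference of 0 the replication genes have reached 87.0% and all genes 46.6%.

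Markers of uterine stroma and smooth muscle had high signal and those of epithelium less. The 12 of 13 stroma markers measured had a median at the 97.0th percentile of signal, the 9 of 11 smooth muscle markers at the 97.4th, and the 13 of 14 epithelial markers at the 68.4th with a lowest at the 36.8th. Endothelial markers had a median at the 80.1st percentile and leukocyte markers at the 48.3rd. Summed on the linear scale, smooth muscle markers ran from 13346 to 14981 with ormeloxifene and from 11027 to 12325 with vehicle. All 9 had a higher mean with ormeloxifene, where 46.6% of all genes had a lower one. Higher means were also seen in 5 of the 6 endothelial, 8 of the 12 leukocyte and 7 of the 12 stroma markers measured. Stroma markers summed to 20331 to 22119 with ormeloxifene and 19862 to 20633 with vehicle, and the epithelial markers to 2955 to 3026 with ormeloxifene and 2746 to 3276 with vehicle. The 12 of 12 leukocyte markers summed to 1696 to 1880 with ormeloxifene and 1665 to 1782 with vehicle, the 6 of 8 endothelial ones to 1394 to 1589 with ormeloxifene and 1233 to 1357 with vehicle, and of 6 red cell markers 1 was measured. The smooth muscle sum was lowest on vehicle replicate 2, the array on which most replication genes were highest. All 9 of its markers were lower there than on vehicle replicate 1, while 54.6% of all genes were higher there. The epithelial sum was also highest on vehicle replicate 2. Cldn3, the epithelial marker of highest signal, had 10.21 there against 9.51 on vehicle replicate 1. Gene by gene, 5 of the 13 epithelial markers were highest on vehicle replicate 2, against 28.3% of all genes. It exceeded vehicle replicate 1 in 6 of the 13, at a median of -0.01, against 54.6% of all genes. Of these 13, 9 had a lower mean with ormeloxifene, at a median of -0.14. The part of these shifts in the replication genes was not tested.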

How the data were processed

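Affymetrix Expression Console is the only tool that the submitters' processing notes name; version, summary method and genome build are not given in the sources used. The values the authors deposited, for 36685 probe sets, were taken as log2 from their range (0.92 to 13.59). Array medians differed (5.67 and 5.93 with ormeloxifene, 5.72 and 5.84 with vehicle), so all probe sets were quantile normalized. Of the probe sets, 18511 had 1 symbol in the platform annotation, 575 had several and 17599 had none; 18394 gene numbers matched GRCr8, used for names. Where a gene had several probe sets (291 genes) the brightest on average was used, leaving 18166 genes, with no filter on dim ones. Differences came from limma 3.58.1 (lmFit, eBayes, 2-sided) in R 4.3.3, with 2 residual and 7.55 moderated degrees of freedom, checked on simulated arrays. The number of arrays limits the precision. The replicates are labelled biological. The SE and p-values combine the spread between a gene's replicates with a variance shared between genes, which supplied most of the 7.55 degrees of freedom. That spread takes in any shift between the replicate numbers. No block was used; deviations of same-numbered arrays from their group means correlated at 0.475 across genes.

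The members and gene lists were chosen with earlier results of these data known. Named with values on every array were the 12 members of smallest p, any past the threshold, any higher without overlap and the one of highest mean in each role; other members were added where a role needed them. Of each other list, the 3 of smallest p were named, except 1 repair gene that is not reported here. Alternatives were other scalings, the replicate block, averaged probe sets, a filter on dim genes, all probe sets, another variance model and leaving out each array. Promoter sequences are RefSeq's, on GRCr8.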

Additional observations from a re-analysis of the deposited data

How the results depend on the processing

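No member passed the adjusted threshold under any of the 12 alternatives; their smallest adjusted p over these was 0.164, that of Pcna with the replicate block on values as deposited, and the largest value of that minimum was 1.00. Leaving out an array treats the lone array of a group as varying like the other group. It also sets a group with both replicate numbers against 1 with a single number, so a turned sign can come from the number. The number of genes past the threshold among all tested, 0 as reported, was 1 with arrays centred on their medians, 1 with probe sets averaged, 4 without genes under the 25th percentile, 4 with trend and robust, and from 0 to 3 with an array left out; it stayed 0 on the values as deposited and with all probe sets. With the replicate block it was 5, and with the block on values as deposited 84, where p-values rest on 39.6 degrees of freedom, nearly all from the variance shared between genes. In each block fit 5 members had an unadjusted p under 0.05, all lower, and the smallest adjusted p in the block on normalized values was 0.475. The numbers are no stated pairing, and the block changed no member's call. Of 54 members, 46 to 48 were lower under the other scalings, averaged probe sets and all probe sets; of the 48 left by the filter on dim genes 42 were. With an array left out the count ran from 32 to 52 and the median difference from -0.34 to -0.05. Leaving out an array turned the sign of 27 of the 54 members, whose differences then ran as follows: Orc2 from -0.57 to 0.070, Orc3 from -0.22 to 0.44, Orc4 from -0.53 to 0.56, Orc5 from -0.22 to 0.44, Orc6 from -0.41 to 0.094, Cdt1 from -0.072 to 0.060, Mcm4 from -0.76 to 0.12, Mcm7 from -0.12 to 0.25, Cdc45 from -0.29 to 0.019. Further ones were Gins1 from -0.74 to 0.048, Gins2 from -0.66 to 0.40, Gins3 from -0.21 to 0.045, Pola2 from -0.28 to 0.064, Prim1 from -0.40 to 0.0014, Pold3 from -0.26 to 0.047, Rfc1 from -0.034 to 0.0043, Rfc4 from -0.39 to 1.40, Rfc5 from -0.21 to 0.13. The others were Rpa3 from -0.96 to 0.45, Fen1 from -0.28 to 0.51, Lig1 from -0.31 to 0.20, Rrm2 from -0.68 to 0.61, Dut from -0.69 to 0.14, Chaf1b from -0.61 to 0.19, Dnmt1 from -0.25 to 0.011, E2f1 from -0.68 to 0.052, E2f8 from -0.23 to 0.066. Without vehicle replicate 2 it turned in 15 members, and without each of the others in 7 to 10. Among the other alternatives Orc4 became -0.030 on values as deposited, with and without the replicate block, and -0.051 with arrays centred on their medians, Cdt1 became 0.013 on values as deposited, with and without the block, and Mcm3 became 0.068 with probe sets averaged. The block on values as deposited brought Kif20a (-0.86), Top2a (-0.84) and Ccna2 (-0.85) past the adjusted threshold. Members outside the naming rule and genes of other lists were put through the alternatives after the data were seen. The cause was not tested. The table gives no background level, so dim members cannot be told from absent ones.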

Other observations

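Histone genes, whose transcripts accumulate in S phase and which random-primed labelling of total RNA can record, were picked by symbol: 27 were measured, 18 lower and 9 higher with ormeloxifene, at a median of -0.10. Many are near-identical copies, so their probe sets may share signal, and the symbols take in variants and testis forms. H2ac4 had 6.31 and 6.58 with ormeloxifene against 6.79 and 7.40 with vehicle, a difference of -0.65 ± 0.26 and the only one at an unadjusted p under 0.05 (0.0398 by limma), where 1.08% of all genes were lower at that level. H2ac21 had 9.23 and 9.37 with ormeloxifene against 9.56 and 10.17 with vehicle, and H1f5 had 7.17 and 6.66 with ormeloxifene against 7.28 and 7.60 with vehicle. The list's median was -0.05 within number 1 and -0.20 within number 2.

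Genes of replication-coupled repair lay lower in 11 of 17 measured, at a median of -0.15, which was 0.00 within number 1 and -0.23 within number 2. Rad18, a ubiquitin ligase that acts on PCNA at stalled forks, differed by -0.52 ± 0.26, and Fancd2, of the Fanconi pathway, by -0.36 ± 0.22. By limma 0 of them passed the adjusted threshold, as did 0% of all genes. At an unadjusted p under 0.05 stood 0 of them, where 1.08% of all genes were lower and 1.12% higher. With the replicate number as a block 2 of them did, both lower, where 3.02% of all genes were lower and 3.74% higher.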
